A study of Homo sapiens with 8 samples.

Results

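The ERBB family, named after EGFR, comprises receptor tyrosine kinases and the growth factors that bind them, and 10 genes of this family were selected by name: the receptors EGFR, ERBB2 and ERBB3, the ligands AREG, EREG, TGFA, HBEGF, BTC and NRG1, and the receptor inhibitor ERRFI1. RefSeq transcripts were assigned to these genes by identifier. Values were obtained for 9 of the 10 genes, in 20 table entries of 24812 in all. EGFR and its shortened variants were not analysed here, so the family is described without its best known receptor. SQ20B is an established human cell line from a squamous cell carcinoma of the head and neck. Poly(A)-selected RNA was sequenced from cells in normoxia (4 replicates) and from cells held in 0.5% O2 for 16 h (hypoxia, 4 replicates), and no other agent separated the groups. The expression unit was FPKM, in which the fragments assigned to a transcript are scaled by its length and by the mapped fragments of the library, which allows levels of different genes to be compared. The deposited table gives 1 authors' FPKM value per condition over its 4 replicates. No spread between replicates and no test is therefore given for any value, and every difference is a description of the pooled values.

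ERBB receptors sit in the plasma membrane and pair with each other when a ligand is bound, which switches on their kinase and, through adaptor proteins, the RAS-MAPK and PI3K-AKT cascades. ERBB2 binds no known ligand and acts as a partner, whereas ERBB3 binds neuregulins but has little kinase activity of its own. Many forms of the ligands, though not all, are made as membrane-anchored precursors that metalloproteases release. The pathway is known for driving growth of squamous epithelia and of tumours that arise from them.

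FPKM was first summed over the listed transcripts of a gene. The log2 difference is the log2 of (hypoxia FPKM + 0.1) less the log2 of (normoxia FPKM + 0.1). Folds given are on that scale, which understates differences of weakly expressed genes. A gene was counted as higher or lower when the fold was at least 1.5 and its mean FPKM over both conditions was at least 0.5. Of all 12106 named genes above that limit, 9.95% were higher in hypoxia, 11.2% were lower and 21.2% met the fold in either direction, with a median log2 difference of -0.07. When the columns were scaled to equal FPKM sums, the median became 0.15 and the shares became 18.6% higher and 4.99% lower. In the 14 genes of a hypoxia response list, including CA9, BNIP3 and VEGFA, hypoxia gave the higher value in each, with a median log2 difference of 2.51. Of 10 markers of squamous epithelium, 8 had a value (KRT14 and PKP1 were not analysed here), led by KRT5 at 398 FPKM in normoxia and 442 in hypoxia, and their summed level, most of it from KRT5, was 630 FPKM in normoxia and 669 in hypoxia. The 8 markers had a median log2 difference of -0.02, with ITGB4 higher (0.85) and KRT6A lower (-0.63). A value was obtained for 2 of 6 fibroblast markers, COL3A1 and LUM, which stayed at or below 0.126 FPKM. Of 5 leukocyte markers, 2 had a value, CD68 at 2.36 FPKM in normoxia and 2.86 FPKM in hypoxia and ITGAM at 0.0221 and 0.251 FPKM. Of 5 endothelial markers, 1 had a value, CDH5 at 4.78 FPKM in normoxia and 2.83 FPKM in hypoxia. The part of these markers in the results was not tested.

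All 9 ERBB family genes with a value passed the FPKM limit. The inhibitor ERRFI1 was 2.59-fold higher in hypoxia, and the ligands EREG, AREG and NRG1 were lower, by 2.83-fold, 2.50-fold and 1.61-fold. The receptors ERBB2 and ERBB3 and the ligands TGFA, HBEGF and BTC lay within 1.5-fold. The family thus held 1 higher and 3 lower genes of 9, and its median log2 difference was 0.02 against -0.07 for all genes. With so few genes, these counts describe the members and are not read as a property of the family. Of their 20 table entries, 16 passed the limit, of which 1 was higher and 5 were lower. Over all 18190 entries above the limit, 10.5% were higher, 14.3% were lower and 24.9% met the fold in either direction.

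**Figure D1:**
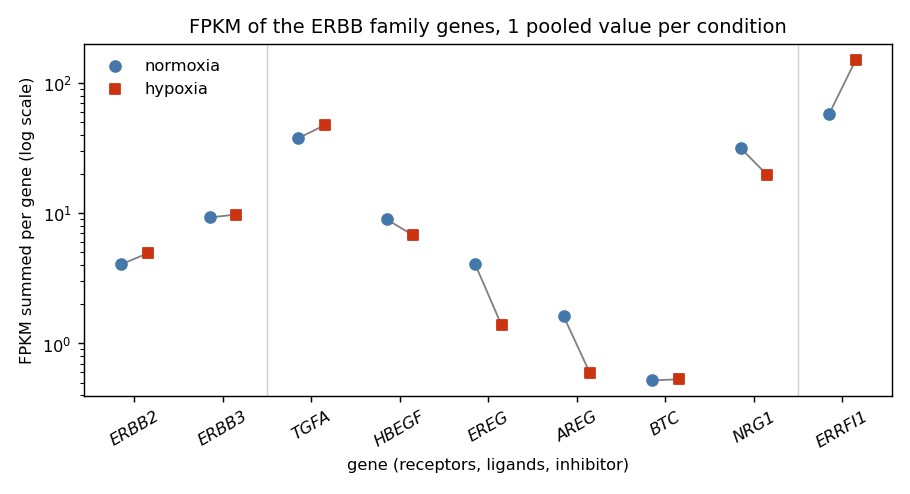
FPKM summed per gene (log axis) for the 9 ERBB family genes, with the pooled value of normoxia as a circle and that of hypoxia as a square. ERRFI1 went from 57.8 to 149.9 FPKM, while EREG, AREG and NRG1 were lower in hypoxia and the receptors were nearly level.

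ERBB3, on chromosome 12 of hg19 (56473809 to 56497291), was the more abundant of the receptors described. It was listed at 9.27 FPKM in normoxia and 9.76 FPKM in hypoxia, a log2 difference of 0.07. ERBB2, on chromosome 17 (37844393 to 37884915), was listed at 4.04 FPKM in normoxia and 4.91 FPKM in hypoxia, a log2 difference of 0.27. Both receptors were thus slightly higher in hypoxia in the deposited values. Scaling to equal sums and centring on the median of all genes both raise log2 differences here, so they could not reverse these signs. With the columns quantile normalized, the log2 differences were 0.14 for ERBB3 and 0.29 for ERBB2. ERBB3 exceeded ERBB2 by 2.29 times in normoxia and 1.99 times in hypoxia. Among all genes above the limit, ERBB3 stood at percentile 52.1 of level in hypoxia and ERBB2 at percentile 36.5, so neither receptor was among the abundant transcripts of these cells.

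The receptor genes each had 2 listed transcripts. For ERBB3, the transcript of the full receptor, NM_001982, was listed at 8.26 FPKM in normoxia and 9.18 FPKM in hypoxia. The short transcript NM_001005915, which encodes a truncated form without the membrane and kinase parts, was listed at 1.01 FPKM in normoxia and 0.576 FPKM in hypoxia, a log2 difference of -0.71. The short form therefore made up 10.9% of ERBB3 FPKM in normoxia and 5.90% in hypoxia, and the transcripts differed in opposite directions. The transcripts of ERBB2, which differ at their 5′ end, moved alike. NM_001005862 was listed at 2.32 and 2.86 FPKM and NM_004448 at 1.73 and 2.05 FPKM, and the share of NM_001005862 was 57.3% in normoxia and 58.3% in hypoxia.

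A neighbour of ERBB3, picked out after its value was seen, was PA2G4, whose product is known as the ERBB3-binding protein EBP1. It begins on the same chromosome at 56498103, just past the end of ERBB3, and was listed at 203 FPKM in normoxia and 102 FPKM in hypoxia. PA2G4 was thus lower by more than 1.5-fold, whereas ERBB3 was nearly level.

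TGFA, a ligand of EGFR on chromosome 2 (70674412 to 70781147), was the most abundant of the 6 ligands in both conditions. Its summed level was 37.6 FPKM in normoxia and 47.3 FPKM in hypoxia, a log2 difference of 0.33. HBEGF, a heparin-binding ligand of EGFR and ERBB4 on chromosome 5 (139712428 to 139726188), was listed at 8.98 FPKM in normoxia and 6.77 FPKM in hypoxia, a log2 difference of -0.40. Neither gene reached 1.5-fold. As they differed in opposite directions, TGFA exceeded HBEGF by 4.19 times in normoxia and 6.99 times in hypoxia.

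The TGFA entries were NM_001099691, at 22.5 FPKM in normoxia and 26.5 FPKM in hypoxia, and NM_003236, at 15.1 and 20.8 FPKM. Both were higher in hypoxia, by log2 differences of 0.23 and 0.46. These messages are known to differ by the choice between adjoining splice acceptors, and the sequence is shown because reads that do not cross this junction fit both entries. In the GRCh37 annotation the acceptors lie 3 bases apart, and the window at chr2:70692853-70692882 (minus strand) reads 5′ to 3′ as follows, with both AG-ending acceptor triplets in capitals.
TGFA acceptor pair: tttcctctcccCAGCAGacccgcccgtggc
Of the annotated coding transcripts, 2 begin the exon after the first triplet and 5 after the second. The share of NM_003236 was 40.2% of TGFA FPKM in normoxia and 44.1% in hypoxia.

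EREG, AREG and BTC are further ligands of EGFR, of which EREG and BTC also bind ERBB4. EREG (epiregulin), on chromosome 4 (75230860 to 75254477), was listed at 4.07 FPKM in normoxia and 1.38 FPKM in hypoxia, a log2 difference of -1.50. Only 0.413% of all genes above the limit had a lower log2 difference than EREG. AREG (amphiregulin) was listed at 1.62 FPKM in normoxia and 0.588 FPKM in hypoxia, a log2 difference of -1.32, and 0.768% of all genes lay lower. BTC (betacellulin), on chromosome 4 (75671448 to 75719882), was barely above the limit, with 0.521 FPKM in normoxia and 0.531 FPKM in hypoxia. Its log2 difference was 0.02 and became -0.02 when the columns were quantile normalized, so it has no direction. The differences of AREG and EREG depended on the added constant and were -0.72 and -1.09 with 1 FPKM added in place of 0.1.

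AREG had 2 entries under the same transcript identifier NM_001657 and the same locus (75480629 to 75490485), with different values. The larger entry was 1.04 FPKM in normoxia and 0.366 FPKM in hypoxia, and the smaller was 0.581 and 0.223 FPKM, so that both were lower in hypoxia. The hg19 assembly holds a second copy of the gene at 75310853 to 75320726 on the same chromosome. An alignment of the 9857-base AREG locus to this copy covered 9880 columns with 10 mismatches and 29 gap positions. Reads of AREG can hardly be placed between such copies, and the summed value is the one used here. Positions given for AREG are those of its listed locus, and which copy gave the reads was not determined.

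**Figure D2:**
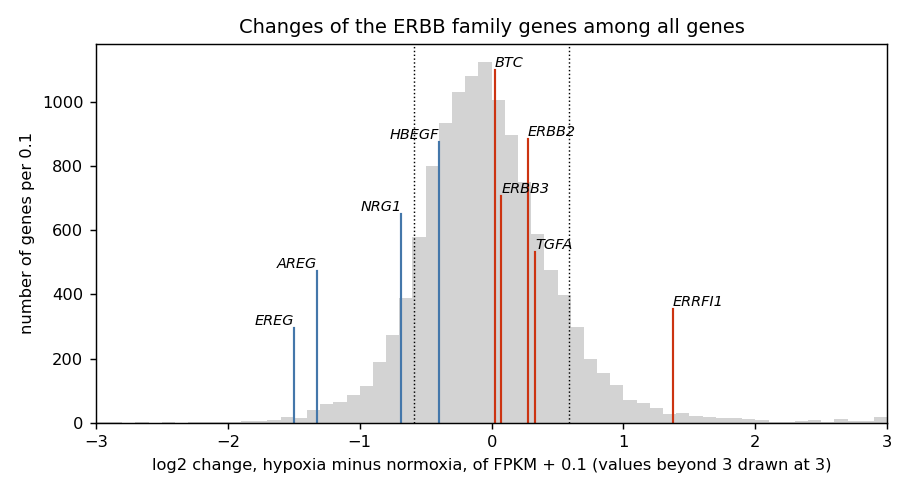
Log2 difference between hypoxia and normoxia (x axis) for all genes above the FPKM limit (grey bars, number of genes per 0.1) with the 9 ERBB family genes as vertical lines of arbitrary height. Dotted lines mark 1.5-fold, and EREG (-1.50), AREG (-1.32), NRG1 (-0.68) and ERRFI1 (1.37) lie outside them.

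EREG, AREG and BTC lie together with EPGN (epigen), another ligand of EGFR that was not among the selected genes, in a span of 546 kb on chromosome 4. No other named gene with a value lay within this span. EPGN was listed at 3.68 FPKM in normoxia and 2.61 FPKM in hypoxia, a log2 difference of -0.48 over 6 entries, short of 1.5-fold. The cluster therefore ran from EPGN (-0.48) over EREG (-1.50) and AREG (-1.32) to BTC (0.02). Within 1000 kb on either side, 10 further genes passed the limit, of which 4 were lower in hypoxia and 0 were higher, beside 11.2% lower and 9.95% higher over all genes. These neighbours were looked up after the values of the ligands were seen. Those on the side of EPGN were the chemokine genes CXCL2 (log2 difference -1.25) and CXCL3 (3.03 FPKM in normoxia and 1.46 FPKM in hypoxia) and the folate enzyme gene MTHFD2L (-0.70), and RCHY1 (-0.64), a ubiquitin ligase gene, lay beyond BTC. The chemokine genes CXCL8 (-0.08) and CXCL1 (-0.17) of the same neighbourhood lay within 1.5-fold.

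**Figure D3:**
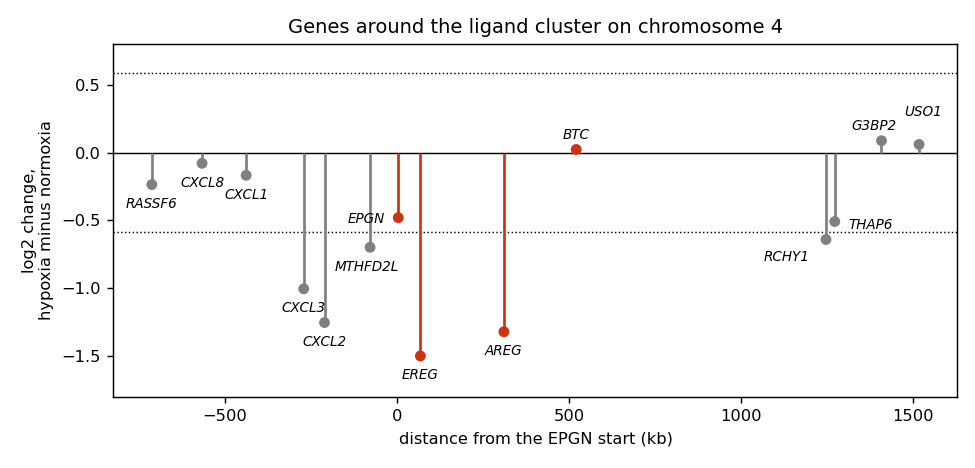
Log2 difference of FPKM between hypoxia and normoxia (y axis) against distance from the EPGN start in kb (x axis) for genes above the FPKM limit, with the ligand genes in red and neighbours in grey. EREG and AREG reach -1.50 and -1.32, BTC stays at 0.02, and dotted lines mark 1.5-fold. AREG is drawn at its listed locus.

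The core of the hypoxia response element was searched in the RefSeq promoters (GRCh38.p14, 250 bases before to 50 bases after the start), as ACGTG or GCGTG on either strand. Of 35116 promoters, 48.4% held at least 1 match, 21.4% ACGTG and 36.5% GCGTG. ERRFI1 had 0 matches in this window. The share of promoters with 2 or more matches was not computed, and a relation of matches to expression was not tested. EREG and AREG had the most matches of the members searched, 2 each, and these are shown with the match in capitals.
EREG, chr4:74364895-74364924: cCACGCtccccacctcccggagggagatgg
EREG, chr4:74365165-74365194: gtcagagggacacagccaACGTGgggtccc
AREG, chr4:74444985-74445014: gagggaggcgggGCGTGtgtcctccgcgcg
AREG, chr4:74445000-74445029: tgtgtcctccgcGCGTGgttttcgggtagc
All are on the plus strand, and the first EREG match is the complement of GCGTG. The AREG promoter is that of GRCh38 and was not aligned to hg19. By its distance from EREG, it falls at the other hg19 copy and not at the listed locus. The AREG matches therefore need not apply to the listed locus. HBEGF and BTC had 1 match each, ERBB2 had 0, and TGFA had a match in 1 of its 2 promoters. ERBB3 and NRG1 were not searched. A match describes letters only and says nothing of binding.

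NRG1 (neuregulin 1) is a ligand of ERBB3 and ERBB4 and lies on chromosome 8 (31497268 to 32622558). Its summed level was 31.6 FPKM in normoxia and 19.7 FPKM in hypoxia, a log2 difference of -0.68 or 1.61-fold lower. With the columns scaled to equal sums the difference was -0.46 and no longer reached 1.5-fold. NRG1 exceeded its receptor ERBB3 by 3.41 times in normoxia and 2.01 times in hypoxia.

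Each of the 8 listed NRG1 transcripts was lower in hypoxia, though reads are shared between them and their values are not independent. NM_013958, the HRG-beta3 form, was listed at 24.1 FPKM in normoxia and 14.4 FPKM in hypoxia, a log2 difference of -0.73. It carried 76.1% of NRG1 FPKM in normoxia and 73.4% in hypoxia, so the pattern of the gene is largely that of this transcript. NM_004495, the HRG-gamma form, came next with 2.78 and 2.20 FPKM (log2 difference -0.32), followed by NM_001160008 with 1.79 and 1.12 FPKM (-0.63). The levels of NM_013960 were 1.00 and 0.788 FPKM, and those of NM_001159996 were 0.689 and 0.585 FPKM, both within 1.5-fold. The remaining 3 transcripts had a mean below 0.5 FPKM. Among them, NM_013964, the HRG-alpha form, was listed at 0.780 FPKM in normoxia and 0.203 FPKM in hypoxia, the lowest log2 difference of the 8 (-1.54) but at a low level.

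**Figure D4:**
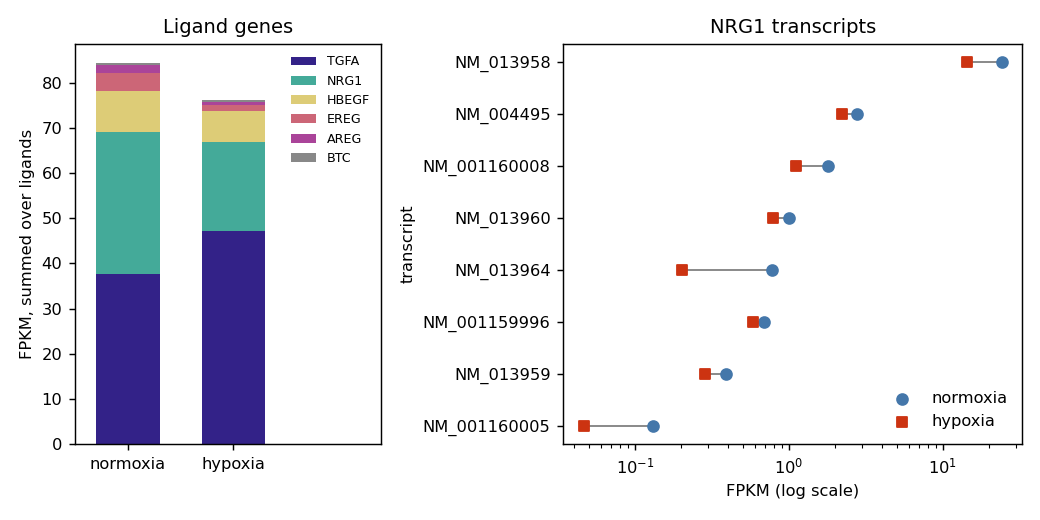
Left, FPKM of the 6 ligand genes stacked by condition, with sums of 84.4 in normoxia and 76.2 in hypoxia. Right, FPKM (log axis) of the 8 NRG1 transcripts in normoxia (circles) and hypoxia (squares), each lower in hypoxia and led by NM_013958.

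Added up, the 6 ligand genes gave 84.4 FPKM in normoxia and 76.2 FPKM in hypoxia, a log2 difference of -0.15. Scaling the columns to equal sums raises log2 differences by about 0.23, so the sign of this difference depends on the scaling. The make-up of the ligand sum differed more than its size. TGFA supplied 44.5% of it in normoxia and 62.1% in hypoxia, and NRG1 supplied 37.5% and 25.8%. EREG went from 4.83% to 1.81% of the sum and AREG from 1.92% to 0.772%. Over the 5 members that bind EGFR, the sum was 52.8 FPKM in normoxia and 56.6 FPKM in hypoxia, of which TGFA was 71.2% and 83.6%. The order of the ligands by level was TGFA, NRG1, HBEGF, EREG, AREG and BTC in both conditions. In hypoxia AREG (0.588 FPKM) and BTC (0.531 FPKM) were almost equal.

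Other genes of the family outside the selection were EPGN (above), NRG4 and NRG2. NRG4, a ligand of ERBB4 on chromosome 15 (76234328 to 76304785), was listed at 2.19 FPKM in normoxia and 3.66 FPKM in hypoxia, a log2 difference of 0.72, so that its direction was opposite to that of NRG1. NRG2 was listed at 0.138 and 0.0643 FPKM, below the limit. ERBB4, EGF and NRG3 were not analysed here.

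ERRFI1 (also MIG6), on chromosome 1 (8071779 to 8086393), encodes a cytoplasmic protein that binds the kinase domain of ERBB receptors and blocks it. Its single transcript NM_018948 was listed at 57.8 FPKM in normoxia and 149.9 FPKM in hypoxia, a log2 difference of 1.37. Among the 9 genes with a value it was the most abundant in both conditions and stood at percentile 86.5 of level in normoxia and 96.0 in hypoxia. Its log2 difference exceeded that of 98.4% of all genes, and ranged from 1.36 to 1.63 under other scalings and added constants. ERRFI1 exceeded ERBB3 by 6.24 times in normoxia and 15.4 times in hypoxia, and TGFA by 1.54 and 3.17 times. The other inhibitors and degradation factors of the receptors did not share this size of difference. Of 20 such genes above the limit, only CBLB, a ubiquitin ligase, was higher (2.37 and 4.25 FPKM, log2 difference 0.82) and 0 were lower, with a median of 0.01. CBL had a log2 difference of 0.56 and SOCS3 of 0.36, while the lowest were RNF41 (-0.51), a ubiquitin ligase that acts on ERBB3, SOCS4 (-0.26) and LRIG3 (-0.22).

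The rest of the pathway was counted in lists. Over 5 lists together, 15 of 91 genes above the limit were higher and 6 were lower, beside 9.95% higher and 11.2% lower over all genes. With columns scaled to equal sums, 26 were higher and 4 were lower, beside 18.6% and 4.99% over all genes. The same shares over all genes apply to each single list. For the metalloproteases and other factors that release the ligands, 2 of 9 genes were higher, TIMP3 (35.5 and 66.3 FPKM), which is an inhibitor of such proteases, and ADAM12 (0.452 and 0.862 FPKM). ADAM17, the main protease for several of these ligands, was listed at 27.4 and 37.7 FPKM, a log2 difference of 0.46. The lowest of this list were ADAM15 (0.06), ADAM9 (0.16) and ADAM10 (0.19), so all 9, TIMP3 included, lay above 0. Of all genes above the limit, 56.4% were lower in hypoxia by any amount.

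Of 29 adaptors and effectors, 6 were higher and 0 were lower. The highest were PIK3CB (log2 difference 0.72), a catalytic subunit of PI3K, the adaptor CRKL (0.68) and the RAS exchange factor SOS1 (0.68). The lowest were the adaptor GRB2 (-0.54), the kinase AKT1 (-0.42) and PIK3R2 (-0.39), none of which reached 1.5-fold. Of 13 RAS and MAPK cascade genes, MAPK3 (0.67) and MAP2K1 (0.60) were higher, followed by RASA1 (0.30), and HRAS was lower (-0.94, from 9.58 to 4.93 FPKM). MAP2K2 (-0.53) and ARAF (-0.48) came next.

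Genes known as transcriptional targets or feedback regulators of the pathway differed in both directions, with 4 of 20 higher and 5 lower and a median log2 difference of -0.12. FOS was 4.78-fold higher (0.605 and 3.27 FPKM), and JUNB (0.96) and JUN (0.82), also AP-1 subunits, were higher, whereas the AP-1 subunit FOSL1 was lower (2.76 and 1.70 FPKM, log2 difference -0.67, named after its value was seen). DUSP4 (-0.95), a MAPK phosphatase, CCND1 (-0.91), which encodes cyclin D1, and PHLDA1 (-0.83) were lowest. CCND1 was listed at 75.7 FPKM in normoxia and 40.3 FPKM in hypoxia. Among other receptor tyrosine kinases, 5 of 17 genes were higher and 0 were lower, with a median of 0.23 against 0.17 for ERBB2 and ERBB3. The highest were the insulin receptor INSR (1.27), IGF2R (1.10), which is a sorting receptor without a kinase, and the collagen receptor DDR1 (1.08). FGFR2 (-0.55), EPHA2 (-0.54) and TYRO3 (-0.22) were the lowest.

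**Figure D5:**
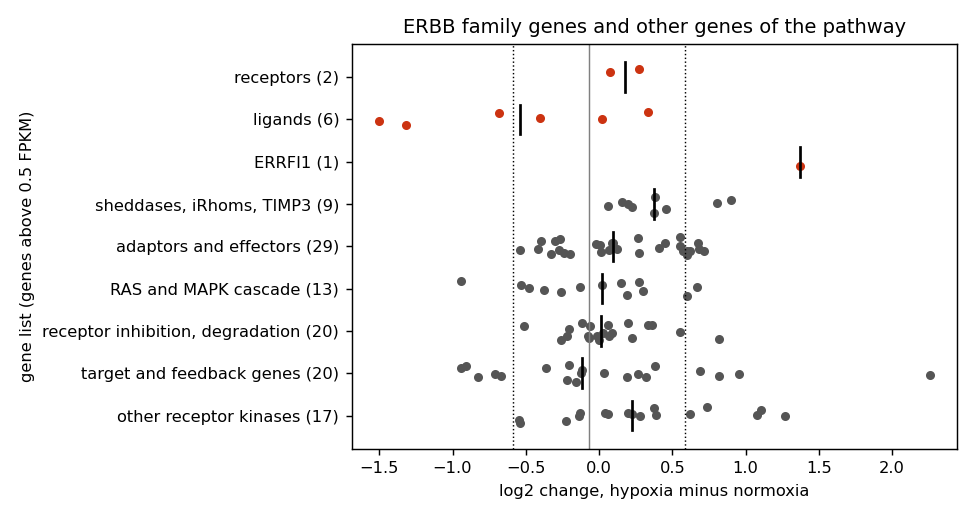
Log2 difference between hypoxia and normoxia (x axis) of each gene above the FPKM limit in the ERBB family (red) and in lists of other pathway genes (grey), with the number of genes in brackets and a black bar at each median. Dotted lines mark 1.5-fold, the grey line is the median of all genes (-0.07), and the medians run from -0.54 for the 6 ligands to 1.37 for ERRFI1.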

How the data were processed

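RNA-seq of SQ20B cells was analysed from 1 deposited table of RefSeq transcripts. Per the labels and the study's methods, the authors aligned stranded poly(A)-selected libraries with STAR 2.3.0.1 to hg19 and ran Cufflinks 2.1.1 with RefSeq annotation. The deposited FPKM values are 1 per condition over 4 replicates, scaled by transcript length and mapped fragments. The table's log2 fold changes, test statistics, p-values and q-values are the authors' own comparison and were not used. Neither interval nor detection limit is given, since depth and counts per sample were not analysed here. The planned limma test, which needs replicate values, could not be run.

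Gene symbols came from the RefSeq annotation of GRCh38.p14 (24293 of 24812 entries, 97.9%), and FPKM was summed per gene. Table starts count from 0 and were raised by 1. A pseudocount of 0.1, a mean FPKM limit of 0.5 and a fold of 1.5 were used. The code was checked on the normoxia values with changes planted without noise, which says nothing of how reliable the calls are. The members and lists were chosen with earlier results of these data known. Named were all members, their transcripts above the limit, other family genes, the 3 highest and 3 lowest genes of each pathway list, and up to 3 of the hypoxia list. PA2G4 and the neighbours on chromosome 4 were added after their values were seen. The planned share of EGFR variants was not computed. The AREG locus was aligned with BLAST 2.17.0 to GRCh37, and Python 3.11.15, numpy 2.4.6, pandas 2.3.3 and matplotlib 3.10.9 were used. Alternatives to scaling, pseudocount, limit, fold and transcript choice were tried.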

Additional observations from a re-analysis of the deposited data

How the results depend on the processing

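Of 63 log2 differences of single members under alternative scalings, pseudocounts and transcript choices, 62 kept their side of 1.5-fold. The exception was NRG1 with columns scaled to equal sums (-0.46). The setting with coding transcripts only could not differ, because every member entry is a coding transcript. For EREG, HBEGF, BTC and ERRFI1, each with 1 entry, the most abundant transcript also repeats the main value. ERRFI1 was at least 1.5-fold higher in each of the 7 settings, of which both transcript choices repeat its main value. A fold of 1.2 gave 3 members higher, beside 23.8% of all genes. Of member transcripts, 5 were lower and 1 higher by 1.5-fold. The number lower was 3 with equal sums, 2 with a pseudocount of 1, 8 with no FPKM limit, 3 with a mean of at least 1 FPKM, 2 with a fold of 2 and 8 with a fold of 1.2. The number higher was 2 with equal sums and 3 with a fold of 1.2. Shares over all entries were not computed under these alternatives, so these counts are not read further. For the pathway lists, 15 of 91 genes were higher and 6 lower. The number higher was 26 with equal sums and 9 with a pseudocount of 1, beside 18.6% and 5.94% over all genes. With a fold of 2, 1 was higher and 0 were lower, beside 3.21% and 2.62% over all genes. With a fold of 1.2, 33 were higher and 18 lower, beside 23.8% and 33.0% over all genes. Lower fold limits and no FPKM limit admit more genes by construction, and higher limits admit fewer. Equal sums raise every log2 difference, and a larger pseudocount brings every difference nearer to no change. Leaving IGF2R out of the other receptor tyrosine kinases, chosen after seeing the data, left 4 of 16 higher. No paired analysis was possible because the table holds 1 pooled value per condition, and for the same reason no replicate could be left out. Alternatives for the EGFR variants were not run.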
